A study of Acacia koa with 4 samples.

Results

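Cellulose synthases, sucrose synthases and xylan-acting enzymes were followed in Acacia koa, a tree of the legume family, in seedlings whose stems had been bent. The members were the 45 transcripts, of 4000 on the array, whose description named a cellulose synthase, CesA, COBRA, irregular xylem, xylan, korrigan or a sucrose synthase, leaving out xyloglucan. They comprised 28 cellulose synthases, 12 sucrose synthases and 5 endoxylanases. No description held the words COBRA, irregular xylem or korrigan, and none named a cellulose synthase-like protein. The descriptions do not say which cellulose synthases serve primary and which serve secondary walls, and the xylan entries were enzymes that cut xylan and not enzymes that make it. Each description is that of a similar protein in another species, so a koa transcript is called here by its identifier and by that description.

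The stressed group held 2 pools of about 20 seedlings each, with stems bent by hand and not wounded, and the unstressed group held 2 pools of about 20 unbent seedlings. The labels name no genotype, no age and no treatment other than bending, and do not say how soon after bending the seedlings were frozen. Seedlings were ground and each pool was hybridised to 1 single-colour array, so each value averages over the organs of a seedling and any local response in the stem is diluted. In such pools, fewer cells of a type and less RNA per cell cannot be told apart.

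Cellulose synthases sit in the plasma membrane, where several catalytic CesA proteins work together in 1 complex and spin glucose into cellulose, the load-bearing polymer of the wall. Plants use different CesA proteins for the primary walls of growing cells and for the thick secondary walls of wood. Sucrose synthase splits sucrose into fructose and UDP-glucose, and UDP-glucose is the substrate of cellulose synthase. Xylan is the main hemicellulose of secondary walls in flowering plants, and endoxylanases cut its backbone. Stems of broad-leaved trees that are held bent or leaning are known for making tension wood, which is rich in cellulose.

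None of the 45 members passed the threshold in stressed against unstressed pools (limma, adjusted p under 0.05 over all 4000 transcripts), where 0.95% of all transcripts did, 0.925% in the higher and 0.025% in the lower direction. The smallest adjusted p among the members was 0.25, that of the cellulose synthase A103931. At an unadjusted p under 0.05 there was 1 member, or 2.22%, again A103931 and in the lower direction, against 5.5% of all transcripts in either and 1.68% in the lower direction. The number called over the whole array was 38, and it was 10 without stressed replicate 1, 8 without stressed replicate 2, 25 without unstressed replicate 1 and 27 without unstressed replicate 2, with 0 members called in each of these fits. The 95% confidence interval of the difference lay within 2-fold in both directions for 39 of the 45 members (86.7%), and for 92.1% of all transcripts. For these 39 a change of 2-fold or more in either direction was outside the interval, which is not adjusted for the number of transcripts. The other 6 intervals, those of cellulose synthases A103931, A28019, A130869, A117994 and A110018 and of sucrose synthase A118727, reached past 2-fold on the lower side only.

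**Figure D1:**
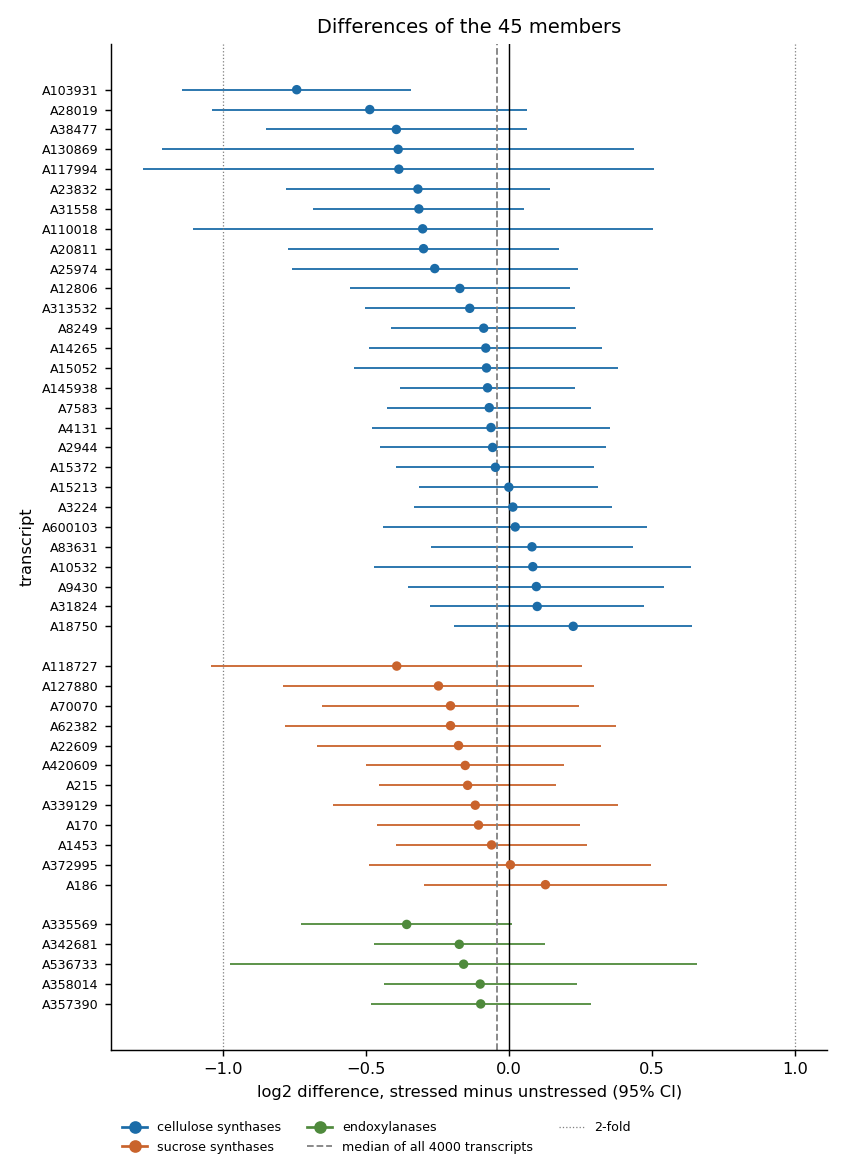
Log2 difference (stressed minus unstressed, x axis) of each of the 45 members (y axis), with limma's 95% confidence interval, n = 2 pools per group. Points run from −0.74 to 0.23, and the interval of A103931 alone leaves out 0.

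Among the cellulose synthases, A103931 had the largest difference. Its RMA intensity was 1874 and 1741 in stressed replicates 1 and 2, against 2712 and 3361 in unstressed replicates 1 and 2. Both stressed pools lay below both unstressed pools, and the gap between the groups was wider than the spread within either. The log2 intensity averaged 10.82 ± 0.08 in stressed and 11.56 ± 0.22 in unstressed pools (SD, n = 2 each), 1.67-fold lower in stressed pools (95% confidence interval 1.27 to 2.21, limma unadjusted p = 0.0051, adjusted p = 0.25). The log2 difference was −0.90 to −0.59 over the fits that left out 1 array, with adjusted p-values from 0.17 to 0.9998.

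The pair A28019 and A20811 shared 1 similar protein, described as a putative cellulose synthase. A28019 had 3597 and 2602 in stressed pools, against 4783 and 3838 in unstressed pools. A20811 had 1460 and 1110 in stressed pools, against 1455 and 1683 in unstressed pools. The groups did not overlap for A28019 (log2 difference −0.49 ± 0.21, SE, limma adjusted p = 0.99) and overlapped for A20811 (−0.30 ± 0.18, SE, adjusted p = 0.99). The stressed pools of A28019 were 1.38-fold apart and its unstressed pools 1.25-fold apart, which is close to the 1.40-fold difference between the groups.

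A38477, described as a cellulose synthase, had 4839 and 4931 in stressed pools, against 7423 and 5542 in unstressed pools. A31558, described as CesA-1, had 11994 and 13020 in stressed pools, against 16885 and 14298 in unstressed pools. A23832, a further cellulose synthase, had 737 and 752 in stressed pools, against 799 and 1077 in unstressed pools. In all 3 the groups were apart, the stressed pools lay close together and the unstressed pools were wider. Their log2 differences were −0.39 ± 0.18, −0.31 ± 0.14 and −0.32 ± 0.18 (SE), in that order, each at a limma adjusted p of 0.99.

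The brightest cellulose synthase, A2944, described as CesA1, had 21423 and 24129 in stressed pools, against 21551 and 25942 in unstressed pools. The groups overlapped and the log2 difference was −0.06, with a 95% confidence interval from −0.45 to 0.34. The dimmest, A600103, described as cellulose synthase 6F, had 161 and 180 in stressed pools, against 146 and 192 in unstressed pools. Its groups also overlapped, at a log2 difference of 0.02 (−0.44 to 0.48). Intensities of different transcripts depend on their probes, so levels are not ranked between transcripts.

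**Figure D2:**
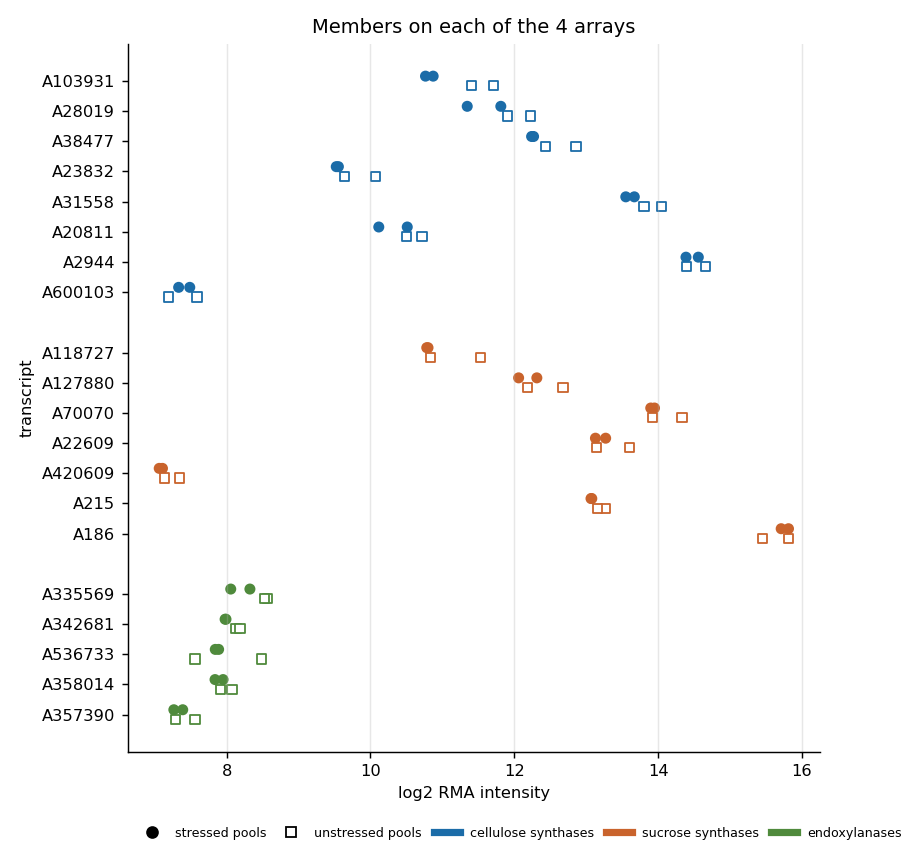
Log2 RMA intensity (x axis) on each of the 4 arrays for 20 members (y axis), as filled circles for stressed pools and open squares for unstressed pools. The circles of A103931 lie left of its squares with a clear gap, while those of A2944, A600103 and A536733 lie among or between theirs.

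Over all 28 cellulose synthases the log2 differences ran from −0.74 to 0.23, with 20 negative and 8 positive. That is 71.4% negative, against 60.8% of all transcripts. In 6 of the 28 both stressed pools lay below both unstressed pools (21.4%), against 19.5% of all transcripts, so this share was near the background. In 0 of the 28 were both stressed pools above both unstressed pools, against 12% of all transcripts. The largest positive difference was that of A18750, described as a cellulose synthase A catalytic protein. It had 3076 and 3542 in stressed pools, against 2552 and 3124 in unstressed pools, which overlap (log2 difference 0.23, −0.19 to 0.64).

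The wording of the descriptions sets apart 9 cellulose synthases named CesA or catalytic subunit, a grouping made after the values were seen. Their median log2 difference was −0.06, with 6 negative and a range from −0.31 to 0.23. The 3 transcripts described as CesA2 (A15052, A4131 and A7583) were nearly alike, from −0.08 to −0.06. The median over the other 19 cellulose synthases was −0.17, with 14 negative and a range from −0.74 to 0.10. The order of the medians turned with the unstressed pool. Against unstressed replicate 1, stressed replicates 1 and 2 gave −0.0086 and 0.16 for the 9, and −0.30 and −0.16 for the 19. Against unstressed replicate 2 they gave −0.17 and −0.09 for the 9, and −0.11 and 0.01 for the 19. The medians are descriptions, and the difference between the 9 and the 19 was not tested.

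Among the 12 sucrose synthases none passed the threshold, and none had an unadjusted p under 0.05. A118727 had 1783 and 1762 in stressed pools, against 1823 and 2966 in unstressed pools. The groups did not overlap, but unstressed replicate 1 was close to the stressed pools. The log2 difference of −0.39 ± 0.25 (SE, limma adjusted p = 0.99) was −0.04 without unstressed replicate 2 and −0.74 without unstressed replicate 1. Its partner A62382, with the same similar protein, had 1338 and 1138 in stressed pools, against 1172 and 1723 in unstressed pools, which overlap (−0.20, but 0.07 without unstressed replicate 2).

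The brightest sucrose synthase was A186, similar to a sucrose synthase of soybean. It had 53623 and 57537 in stressed pools, against 44934 and 57482 in unstressed pools. The groups overlapped at a log2 difference of 0.13 (−0.30 to 0.55). The highest intensity on any array was 64925, so A186 lay near the top of the scale, where differences can be understated. A127880 and A22609 share its similar protein and stood at −0.25 ± 0.21 and −0.18 ± 0.19 (SE). A127880 had 4270 and 5090 in stressed pools, against 4663 and 6552 in unstressed pools. A22609 had 8954 and 9878 in stressed pools, against 9047 and 12471 in unstressed pools. In both, the groups overlapped and unstressed replicate 2 was the highest of the 4.

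A215, similar to sucrose synthase 2 of pea, had 8643 and 8578 in stressed pools, against 9886 and 9155 in unstressed pools. The groups were apart with a small gap, at a log2 difference of −0.14 ± 0.12 (SE, limma adjusted p = 0.99). A70070, described as sucrose synthase 1, had 15256 and 15816 in stressed pools, against 15520 and 20617 in unstressed pools, which overlap (−0.20 ± 0.17, SE). The dimmest, A420609, had 134 and 138 in stressed pools, against 162 and 140 in unstressed pools (−0.15 ± 0.13, SE). The nodule-enhanced sucrose synthase A170, named for root nodules in which sucrose feeds nitrogen fixation, stood at −0.11. Over the 12, log2 differences ran from −0.39 to 0.13, with 10 negative (83.3%, against 60.8% of all transcripts). In 3 of the 12 both stressed pools lay below both unstressed pools (25%, against 19.5% of all transcripts).

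The 5 endoxylanases were dim, between 154 and 379 in every pool, where the median over all transcripts was 981 to 1018. A335569 had 320 and 266 in stressed pools, against 379 and 369 in unstressed pools. A342681 had 252 and 254 in stressed pools, against 280 and 291 in unstressed pools. In both the groups were apart, at log2 differences of −0.36 ± 0.14 (limma adjusted p = 0.94) and −0.17 ± 0.12 (SE, adjusted p = 0.99). A357390, which shares their similar protein, had 168 and 154 in stressed pools, against 157 and 189 in unstressed pools. A358014 had 247 and 229 in stressed pools, against 270 and 241 in unstressed pools. A536733, with the same similar protein as A358014, had 237 and 230 in stressed pools, against 358 and 189 in unstressed pools. These last 3 overlapped between the groups, and A536733 turned from −0.16 to 0.30 when unstressed replicate 1 was left out. A357390 turned from −0.10 to 0.04 when unstressed replicate 2 was left out. All 5 differences were negative, against 60.8% of all transcripts, and none had an unadjusted p under 0.05. In 2 of the 5 both stressed pools lay below both unstressed pools (40%, against 19.5% of all transcripts).

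The median log2 difference was −0.08 over the cellulose synthases and −0.15 over the 17 other members, against −0.04 over all transcripts. The first 2 medians differed by 0.07. The same gap between the classes, taken from the differences between the 2 pools of 1 group, had a size of 0.0034 in stressed and 0.10 in unstressed pools. The 0.07 thus lay within the spread of the unstressed pools, and it was 0.03 to 0.08 over the fits that left out 1 array. Without stressed replicate 2 the median of the cellulose synthases was −0.15. Of the cellulose synthases 71.4% were negative, against 88.2% of the other members and 60.8% of all transcripts. The cellulose synthases spread more widely, with quartiles at −0.30 and 0.0038, against −0.20 and −0.10 for the other members. The members within a class are related sequences and are not replicates of the treatment.

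**Figure D3:**
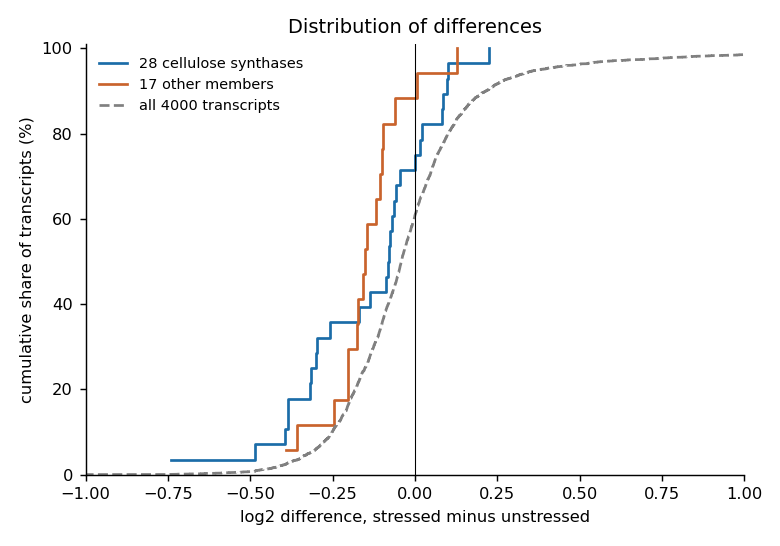
Cumulative share of transcripts (y axis, %) by log2 difference, stressed minus unstressed (x axis, drawn from −1 to 1), for 28 cellulose synthases, 17 other members and all 4000 transcripts. Both member curves cross 50% left of the curve of all transcripts, at −0.08 and −0.15 against −0.04.

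Over all 45 members the median log2 difference was −0.12, which corresponds to 1.08-fold lower in stressed pools, and 35 were negative (77.8%). Each pairing of 1 stressed with 1 unstressed pool gave a negative median. Stressed replicate 1 stood at −0.12 against unstressed replicate 1 and at −0.12 against unstressed replicate 2. Stressed replicate 2 stood at −0.09 against each of them. The same 4 medians over all transcripts were −0.03, −0.04, −0.01 and −0.03. The 4 pairings share pools and are not independent. In 11 of the 45 both stressed pools lay below both unstressed pools (24.4%), against 19.5% of all transcripts, and in 0 both lay above, against 12%.

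The gap between the unstressed pools was wider than the gap between the stressed pools for 35 of the 45 members (77.8%) and 63.4% of all transcripts. The unstressed pools were over 1.5-fold apart in 5 members (11.1%, against 9.3% of all transcripts), and the stressed pools in 0 (against 3.45%). The cellulose synthases A117994 and A110018 share 1 similar protein, and their unstressed pools were 1.89-fold and 1.74-fold apart. A117994 had 1503 and 1099 in stressed pools, against 2307 and 1220 in unstressed pools, and A110018 had 1165 and 867 in stressed pools, against 1634 and 938 in unstressed pools. In both, replicate 1 was the higher pool of its group, and the groups overlapped. A130869 had 911 and 763 in stressed pools, against 1489 and 798 in unstressed pools, with unstressed pools 1.87-fold apart. Without unstressed replicate 1 the log2 differences of A117994, A110018 and A130869 were 0.08, 0.10 and 0.06, opposite in sign to the −0.38, −0.30 and −0.39 over all arrays. The other two were A536733 (1.90-fold) and A118727 (1.63-fold).

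**Figure D4:**
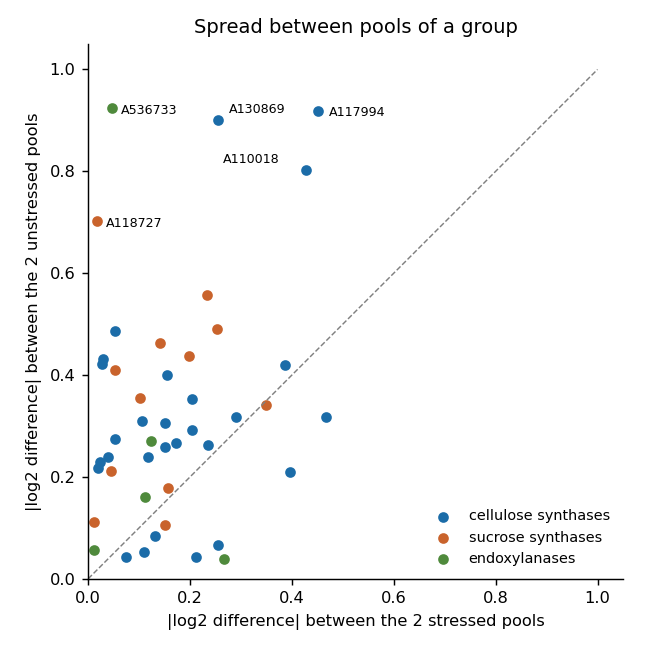
Absolute log2 difference between the 2 stressed pools (x axis) and between the 2 unstressed pools (y axis) for each of the 45 members, with a dashed line of equality. Of the points 35 lie above the line, and the 5 labelled ones have unstressed pools over 1.5-fold apart.

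Of the 45 members, 28 shared their similar protein with at least 1 other member, in 12 groups, and the 45 descriptions rested on 29 distinct similar proteins. In 10 of the 12 groups all members had differences of 1 sign. The exceptions were A14265 (−0.08) with A31824 (0.10), and A186 (0.13) with A127880 and A22609. The catalytic proteins A18750 (0.23) and A83631 (0.08) were the 1 group with positive differences throughout. Close relatives can cross-hybridise on an array, and the members of such a group may partly report the same RNA.

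Other genes of cellulose and wall making were taken from lists of search terms. Over all transcripts 0.95% were called, 60.8% were negative and the median log2 difference was −0.04. At that share called, 0 called in lists this short does not set them apart. The 14 endoglucanases, a class that includes korrigan, a membrane enzyme needed for normal cellulose synthesis, had 0 called. Their median log2 difference was −0.08, with 12 negative (85.7%). Among 28 tubulins, katanins and related proteins of the microtubules that guide cellulose synthase complexes, 0 were called, with 14 negative and 14 positive. In the 47 lignin enzymes and the 13 wall proteins, 3 of which were RNA-binding proteins caught by the terms, 0 were called, at medians of 0.05 and 0.0064. The 5 xylosidases, enzymes that release xylose, had 0 called and 5 positive differences with a median of 0.31. In all 5 the unstressed pools were further apart than the stressed pools. Against unstressed replicate 1, stressed replicates 1 and 2 gave medians of 0.10 and 0.12. Against unstressed replicate 2 they gave 0.50 and 0.49, so the size of the median depends on the unstressed pool. The beta-xylosidase A23705 had 1304 and 1560 in stressed pools, against 1073 and 859 in unstressed pools (limma adjusted p = 0.61), opposite in sign to the endoxylanases. No description held the term chitinase-like.

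Calls came from 2 of these lists. In the 11 transcripts of sugar nucleotide supply, 3 of which were glycosyltransferases caught by the terms, 1 rose, the UDP-glucuronate epimerase A3401. This was 9.09% of the list, against 0.925% of all transcripts. The list had 6 negative and 5 positive differences (54.5% negative, against 60.8% of all transcripts). A3401 had 29327 and 31346 in stressed pools, against 8581 and 10768 in unstressed pools, 3.15-fold higher (limma adjusted p = 0.022). UDP-glucose dehydrogenase (A19506), which turns UDP-glucose towards xylan and pectin precursors, had 14357 and 17913 in stressed pools, against 5916 and 8159 in unstressed pools (adjusted p = 0.16). UDP-glucose pyrophosphorylase (A3027), a further source of UDP-glucose, stood at 0.08 (adjusted p = 0.99). Of 111 NAC and MYB proteins, families that include the switches of secondary wall formation, 2 rose, the NAC proteins A112980 (3.52-fold higher, adjusted p = 0.0081) and A27544 (2.46-fold higher, adjusted p = 0.020). That is 1.80%, against 0.925% of all transcripts called higher. Both are described only as a NAC domain protein, with no word on walls. A105141, described as NAC secondary wall thickening promoting, had 7425 and 6622 in stressed pools, against 8929 and 6588 in unstressed pools. Its groups overlapped (log2 difference −0.13, limma adjusted p = 0.99). The list's median log2 difference was −0.12, with 75 of 111 negative (67.6%, against 60.8% of all transcripts). In 24 both stressed pools lay below both unstressed pools (21.6%, against 19.5%), and in 17 both lay above (15.3%, against 12%). Against unstressed replicate 1, stressed replicates 1 and 2 gave list medians of −0.14 and −0.18. Against unstressed replicate 2 they gave 0.07 and −0.06.

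Marker lists of organs and cell states held no called transcript, where 0.95% of all transcripts were called. At that share lists this short often hold none, and the organ make-up of the pools was not tested. The 2 leaf transcripts had summed intensities of 91136 and 92339 in stressed pools, against 92460 and 92721 in unstressed pools. The 33 xylem and lignin markers summed to 114245 and 105100 in stressed pools, against 117490 and 102488 in unstressed pools. These markers share search terms, laccase among them, with the lignin enzymes and wall proteins above, so the lists overlap. The 39 markers of dividing cells summed to 46200 and 48119 in stressed pools, against 43124 and 48061 in unstressed pools, and the 12 root and nodule markers to 19279 and 19502, against 20777 and 20629. The root and nodule sums were lower in both stressed pools, while 6 of the 12 differences were negative and 6 positive, with a median of −0.0098. These 12 differences ran from −1.05 to 0.21. The lowest had the smallest p of the list (limma unadjusted p = 0.0029, adjusted p = 0.17). The part of these markers in the members' values was not tested.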

How the data were processed

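The deposited values are intensities on a linear scale that the authors made with RMA, 1 per transcript and array, per the submitters' processing notes, which name no version. RMA brings the arrays to a common distribution, so a shift shared by most transcripts would have been removed. Each member rested on 18 probes, per the file headers. No detection calls accompanied the intensities. No koa sequence was used here, so no sequence is shown.

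The log2 intensities of all 4000 transcripts, unfiltered, entered a linear model of stressed against unstressed pools (limma 3.58.1 under R 4.3.3, lmFit then eBayes), with 2 residual and 2.93 prior degrees of freedom and Benjamini-Hochberg adjustment. The smallest two-sided p of an exact permutation test is 0.333 at this size, so none was run. In 10 simulated sets of 4000 transcripts with 200 changed, this fit called 92.8% of 2-fold and 99.9% of 4-fold changes. The noise was independent between transcripts and drawn from variances that eBayes had already drawn together. These shares check the fit and are not its power in the data. There the 2.31-fold higher A19506 was not called (limma adjusted p = 0.16).

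The members and lists were chosen with earlier results of these data known, so no p is given over the list. All arrays' values were given for classes of up to 6 members, and in larger classes for the 6 smallest p and the brightest and dimmest member. Transcripts named outside this rule were chosen after their values were seen. Alternatives were a replicate block, leaving out each array, leaving out the dimmest 25%, adding 50 before log2, median centring, quantile normalization and an intensity trend in the prior.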

Additional observations from a re-analysis of the deposited data

How the results depend on the processing

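With 2 pools a group, precision was limited by the number of arrays, and dim members lay nearer the background. The members had 27 to 40 negative differences and medians of −0.15 to −0.089 over all alternatives. The 27 were of the 36 members left without the dimmest 25%. Over the same alternatives, 53.8% to 63.7% of all transcripts were negative, with medians of −0.053 to −0.020. Titles number the pools 1 and 2 in both groups but do not say that a number marks a shared batch, and with 2 pools a group the correlation of same-numbered deviations (0.51) takes 1 value. The fit with the replicate number as a block called 139 of 4000 transcripts, and 1 member, A103931 (adjusted p = 0.0064). The count called was 8 to 27 over the fits that left out 1 array, which have fewer samples. Differences changed sign among these fits for A2944 (−0.19 to 0.077), A600103 (−0.18 to 0.22), A186 (−0.049 to 0.31), A536733 (−0.62 to 0.30), A22609 (−0.41 to 0.056), A357390 (−0.23 to 0.037) and A70070 (−0.41 to 0.0012). The other 13 of the 20 members named by the rule kept their sign in these fits, and the remaining alternatives changed no sign or call of the 20. Over all 45 members, 25 changed sign in at least 1 of these fits. The medians in these fits were −0.15 to −0.066 for the cellulose synthases and −0.17 to −0.11 for the other members.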

Other observations

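Among the cellulose synthases, the dimmer 14 by mean over the 4 arrays had a median log2 difference of −0.28, with 11 negative and a range from −0.74 to 0.23. The brighter 14 had a median of −0.06, with 9 negative and a range from −0.39 to 0.10. Over all transcripts split at the same intensity of 3679, the medians were −0.04 for the dimmer 3302 and −0.04 for the brighter 698. The limma standard errors were wider in the dimmer cellulose synthases, with a median of 0.18 against 0.15 in the brighter ones. The dimmer 14 include A130869, A117994 and A110018, whose differences turned positive without unstressed replicate 1. In that fit A103931, A23832, A20811, A18750, A83631, A15052 and A600103, also among the dimmer 14, moved lower. The rest of the dimmer 14 moved higher but stayed negative. A28019 went from −0.49 to −0.33 and A25974 from −0.26 to −0.02. A313532 went from −0.14 to −0.10 and A145938 from −0.07 to −0.05. The median of −0.28 thus depends on that array. The split was made after the values were seen, and the difference between the brighter and dimmer ones was not tested.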
